A study of Mus musculus with 9 samples.

Results

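Mast cell granules hold a family of proteases encoded by 10 genes of the 55274 listed in these libraries: the chymases Cma1, Cma2, Mcpt1, Mcpt2, Mcpt4 and Mcpt9, the related protease Mcpt8, the tryptases Tpsb2 and Tpsab1, and carboxypeptidase A3 (Cpa3). The members were chosen by gene symbol, and all 10 were found in each table. RNA was sequenced from 9 cultures of bone marrow cells, 3 of NRASG12D, 3 of NUP98-NSD1 and 3 of NUP98-NSD1+NRASG12D. The cells of all groups came from female C57BL/6J mice, 6 to 8 weeks old, treated 4 days earlier with 5-fluorouracil at 150 mg/kg. They were held for 48 h in interleukin-6, interleukin-3 and stem cell factor and then transduced with MSCV retroviral vectors, in which the viral promoter drives strong constitutive expression. NUP98-NSD1 (a nuclear pore protein fused to a histone methyltransferase) was carried in a vector with GFP, and NRASG12D (an active mutant of NRAS) in a vector with BFP. GFP+, BFP+ or GFP+BFP+ cells were sorted and expanded in the same cytokines, which also support the growth of mast cells. There was no group with empty vectors, so each comparison sets transduced groups against each other, and the sources used here do not say whether the 3 cultures of a group came from different mice. The p-values therefore measure the spread between cultures, which may be technical.

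Mast cells store these proteases, bound to the proteoglycan serglycin, in their secretory granules and release them when the IgE receptor is engaged. In mice, Mcpt1 and Mcpt2 are typical of mucosal mast cells, whereas Mcpt4, Cma1, Tpsb2, Tpsab1 and Cpa3 are typical of connective tissue mast cells. Mcpt8 is best known as a basophil protease, and Mcpt9 as a protease of uterine mast cells. Chymases cut after aromatic residues, tryptases after basic residues, and CPA3 removes residues from the C-terminal end of peptides. C57BL/6 mice carry a splice site change in Tpsab1 and lack its protein, mMCP-7.

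Expression was given as FPKM (fragments scaled to transcript length and to the mapped total of each library), a level that is comparable between genes of different length. The depth estimated from the smallest steps between low FPKM was 22500000 to 35400000 fragments per library. The mast cell receptor genes Fcer1a, Ms4a2, Kit and Il1rl1 together had 6106 to 7352 FPKM in NRASG12D, 3813 to 5272 FPKM in NUP98-NSD1 and 63.4 to 441 FPKM in NUP98-NSD1+NRASG12D cells, and none of the 4 was at 0. A list of 10 neutrophil and progenitor genes moved the other way, from 29.7 to 36.9 FPKM in NRASG12D to 1727 to 6125 and 8874 to 19506 FPKM in the other groups, and Camp and Ltf were at 0 in all NRASG12D libraries. A list of 8 monocyte and macrophage genes summed to 44.6 to 60.04, 543 to 984 and 1926 to 4487 FPKM in the same order, and 5 eosinophil genes to 0.0510 to 0.858, 9.15 to 36.9 and 5.86 to 220 FPKM. Sums for T and NK cell genes did not exceed 1.18 FPKM and those for B cell genes 0.131 FPKM in any library, and 5 erythroid genes had at most 49.4 FPKM. The 4 megakaryocyte genes summed to 479 to 563, 241 to 299 and 75.7 to 1210 FPKM in the same order of groups. Among them, Itga2b fell, with means of 510, 230 and 22.1 FPKM. Pf4 rose, with means of 1.56, 28.3 and 444 FPKM, and had 1157 FPKM in replicate 2 of NUP98-NSD1+NRASG12D. Gp9 and Gp1bb did not exceed 2.57 FPKM. By immunophenotype and morphology, the paper describes NRASG12D cells as mainly mast cells bearing the IgE receptor. It reports a higher proportion of immature myeloid cells with both vectors than with NUP98-NSD1 alone. From the RNA of such cultures, fewer mast cells and less RNA per mast cell cannot be told apart. The part of the cell makeup in the protease results was not tested.

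Members of the protease family had calls in both directions in NUP98-NSD1 against NRASG12D cells, and most of them were called lower in NUP98-NSD1+NRASG12D cells. Of the 10 genes, 9 had at least 1 FPKM in at least 3 libraries and Mcpt9 did not. Cpa3 was listed at 0 in every NRASG12D library and was left out of the tests against that group. Each pair of groups was tested with limma on log2(FPKM + 1) over its own 6 libraries and 13493 genes, and a gene was called at an adjusted p under 0.05. In NUP98-NSD1 against NRASG12D cells, 4 of 8 tested members were called higher (Mcpt1, Mcpt2, Mcpt4, Mcpt8) and 2 lower (Cma1, Tpsb2). Of all tested genes, 52.1% were called, 42.2% higher and 9.98% lower, so the count of higher members was near the background. Both lower calls were lost when all 9 libraries shared 1 fit. In NUP98-NSD1+NRASG12D against NRASG12D cells, 6 of 8 were called lower (Cma1, Cma2, Mcpt2, Mcpt4, Tpsb2, Tpsab1) and 0 higher, where 38.3% of all tested genes were called, 14.1% lower and 24.2% higher. In NUP98-NSD1+NRASG12D against NUP98-NSD1 cells, 7 of 9 were called lower (the chymases Cma1, Cma2, Mcpt1, Mcpt2 and Mcpt4, with Tpsb2 and Cpa3) and 0 higher, where 8.61% of all tested genes were called, 6.31% lower and 2.3% higher. The median log2 fold change of the members was 1.13, -2.60 and -3.96 in the 3 comparisons, beside 0.27, 0.23 and -0.06 over all tested genes. In both comparisons with no member called higher, 0 were higher at an unadjusted p under 0.05. Without replicate 3 of the cells with both vectors, Mcpt8 was called higher than in NRASG12D cells. The libraries of the compared groups did not overlap for 7 of 8, 5 of 8 and 8 of 9 members, beside 64.2%, 58.6% and 31.4% of all tested genes. Each group enters 2 of these comparisons, so they are not independent of each other.

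**Figure D1:**
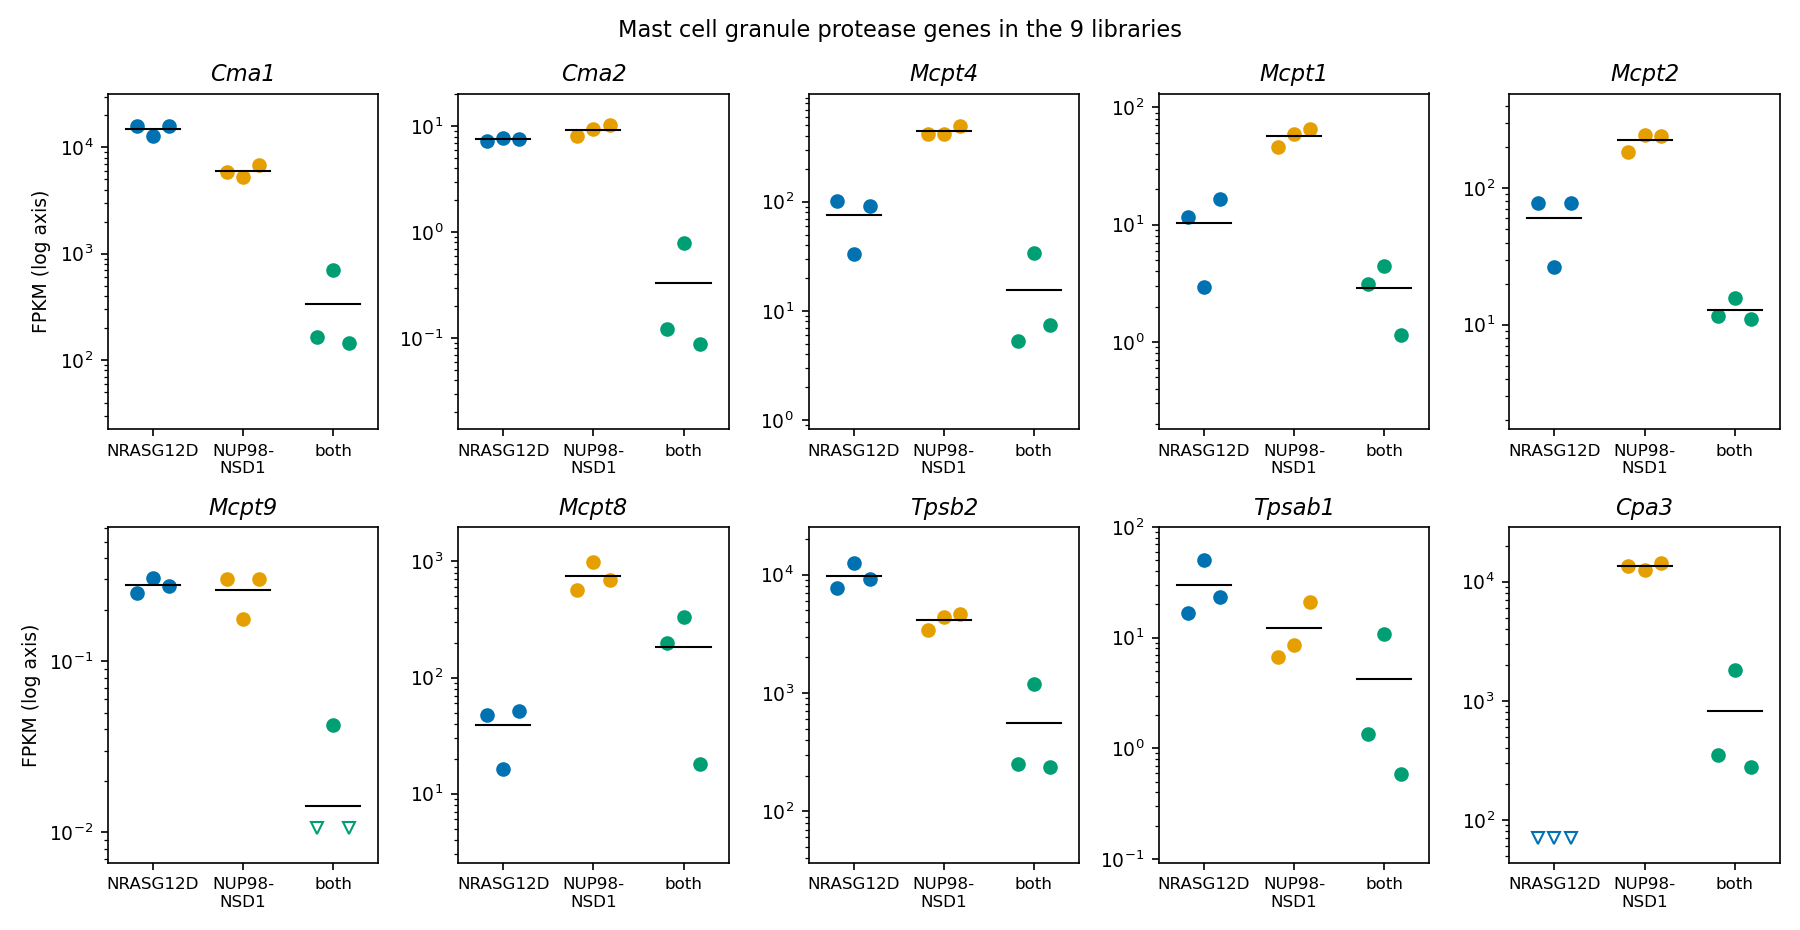
FPKM of the 10 protease genes (log axes, a scale per panel) in the 3 libraries of NRASG12D (blue), NUP98-NSD1 (orange) and NUP98-NSD1+NRASG12D (both, green). Points are libraries in the order of their replicate numbers, lines are group means, and open triangles are values listed at 0, drawn below the other points. Cma1 and Tpsb2 were highest in NRASG12D cells, whereas Mcpt1, Mcpt2, Mcpt4 and Mcpt8 were highest in NUP98-NSD1 cells.

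The chymase genes and Mcpt8 lie in 1 cluster on chromosome 14, the tryptases on chromosome 17 and Cpa3 on chromosome 3 (GRCm38). RefSeq start sites on GRCm38.p6 were matched for 6 of the 10 members, and those of Mcpt2, Cma2, Tpsb2 and Tpsab1 were not matched. The 250 bases before the start are shown for Cma1, Mcpt1 and Mcpt4, because Mcpt1 and Mcpt4 changed together and Cma1 did not follow them, and for Cpa3, the member with the highest level in NUP98-NSD1 cells. Both strands of the windows from 250 bases before to 50 bases after the start were searched for the motif AGATAA, which factors of the GATA family bind, and for the motif CATGTG, which MITF binds. The motif TGATAA, whose last letters overlap those of the first motif, was added after the sequences had been seen. Capitals mark matches. Cma1 is shown at chr14:55944676-55944925 (minus strand), Mcpt1 at chr14:56017714-56017963 (plus strand), Mcpt4 at chr14:56062311-56062560 (minus strand) and Cpa3 at chr3:20242182-20242431 (minus strand).
Cma1: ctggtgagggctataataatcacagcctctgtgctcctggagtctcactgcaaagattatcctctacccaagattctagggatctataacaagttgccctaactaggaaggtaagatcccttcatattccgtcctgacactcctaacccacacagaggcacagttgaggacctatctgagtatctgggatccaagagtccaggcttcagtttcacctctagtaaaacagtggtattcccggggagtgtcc
Mcpt1: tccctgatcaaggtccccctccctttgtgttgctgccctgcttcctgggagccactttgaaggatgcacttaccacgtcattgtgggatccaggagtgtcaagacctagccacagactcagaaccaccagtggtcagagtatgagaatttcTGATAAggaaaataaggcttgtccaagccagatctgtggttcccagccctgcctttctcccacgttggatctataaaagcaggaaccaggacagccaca
Mcpt4: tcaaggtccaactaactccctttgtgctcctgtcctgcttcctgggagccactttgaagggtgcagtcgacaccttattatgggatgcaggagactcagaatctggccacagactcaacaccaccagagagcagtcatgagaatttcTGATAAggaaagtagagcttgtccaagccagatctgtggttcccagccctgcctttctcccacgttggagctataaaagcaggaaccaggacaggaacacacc
Cpa3: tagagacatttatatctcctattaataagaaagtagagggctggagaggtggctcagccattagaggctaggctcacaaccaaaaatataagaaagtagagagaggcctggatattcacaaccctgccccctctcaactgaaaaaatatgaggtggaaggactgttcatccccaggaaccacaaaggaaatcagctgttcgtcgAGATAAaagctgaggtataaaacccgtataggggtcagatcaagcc
The Mcpt1 and Mcpt4 sequences were identical at 86.4% of 242 aligned bases, whereas the other pairs among the 6 matched members were identical at 52.1% to 63.3% of their aligned bases. Both held TGATAA, with its first base 99 and 103 bases before the start, and so did 9.05% of the 32851 windows in the table. Cpa3 held AGATAA, 46 bases before the start, a motif found in 11.2% of the windows. None of the 6 matched members held CATGTG, which 14.2% of the windows held. A match is a run of letters and does not show that a factor binds there. Other forms of the GATA motif were not searched, so the lack of capitals in Cma1 does not show that it holds none.

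Cma1 (ENSMUSG00000022225.7, chromosome 14 from 55941451 to 55944675, 5 exons) encodes mMCP-5, a chymase of connective tissue type that cleaves like an elastase in mice. It had 16008, 12715 and 15911 FPKM in the NRASG12D libraries, 5904, 5267 and 6839 FPKM in the NUP98-NSD1 libraries, and 163, 697 and 144 FPKM in the NUP98-NSD1+NRASG12D libraries. No groups overlapped, and replicate 2 was the highest library of the NUP98-NSD1+NRASG12D group. By its mean, Cma1 had the highest listed FPKM of all genes in NRASG12D cells. This ranking takes the 0 listed there for Cpa3 as given, a value that may stand for a locus not estimated. Cma1 was the gene of rank 3 in NUP98-NSD1 cells and that of rank 299 in NUP98-NSD1+NRASG12D cells. In NUP98-NSD1 cells its mean was 2.48-fold lower than in NRASG12D cells (log2 fold change -1.31, standard error 0.16, adjusted p = 0.0014 by limma). In NUP98-NSD1+NRASG12D cells it was 44.4-fold lower than in NRASG12D cells (log2 fold change -5.86, standard error 0.59, adjusted p = 0.000535 by limma) and 17.9-fold lower than in NUP98-NSD1 cells (log2 fold change -4.55, standard error 0.60, adjusted p = 0.00942 by limma). Without replicate 2 of NUP98-NSD1+NRASG12D these falls were larger, with log2 fold changes of -6.58 and -5.28, and over the 6 fits without a library they ran from -6.58 to -5.45 and from -5.28 to -4.14, all called. The call of Cma1 between NUP98-NSD1 and NRASG12D cells was lost when all 9 libraries shared an estimate of the spread (adjusted p = 0.0933, with a range of 0.000122 to 0.769 over 10 alternatives). Of the 50-base stretches of Cma1, 5.38% also occur in the pseudogene Gm48934.

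Mcpt4 (ENSMUSG00000061068.7, chromosome 14 from 56059629 to 56062313, 5 exons) encodes mMCP-4, the chymase of connective tissue mast cells that is closest in function to human chymase. Its level was 101, 33.2 and 91.1 FPKM in NRASG12D, 415.1, 415 and 491 FPKM in NUP98-NSD1 and 5.25, 34.1 and 7.46 FPKM in NUP98-NSD1+NRASG12D libraries. All NUP98-NSD1 libraries were above the others, but replicate 2 of NRASG12D was slightly below replicate 2 of NUP98-NSD1+NRASG12D, so these groups overlapped. In NUP98-NSD1 cells the mean of Mcpt4 was 5.87-fold higher than in NRASG12D cells (log2 fold change 2.68, standard error 0.39, adjusted p = 0.00216 by limma), opposite to Cma1. Relative to NUP98-NSD1 alone, Mcpt4 was 28.2-fold lower with both vectors (log2 fold change -5.16, standard error 0.60, adjusted p = 0.00772 by limma), the largest fall among the members, and without replicate 2 of NUP98-NSD1+NRASG12D the log2 fold change was -5.92. Against NRASG12D cells the fall in NUP98-NSD1+NRASG12D cells was -2.48 on the log2 scale (standard error 0.70, adjusted p = 0.0313 by limma). This call was lost without NRASG12D replicate 1 or 3 and without NUP98-NSD1+NRASG12D replicate 1 or 3, with log2 fold changes of -3.24 to -1.99 and adjusted p-values of 0.00526 to 0.104 over the 6 fits that left out a library.

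Cma2 (ENSMUSG00000068289.6, chromosome 14 from 55950980 to 55974031), a further chymase gene beside Cma1, was low in every library. It had 7.21, 7.83 and 7.63 FPKM in NRASG12D, 8.10, 9.52 and 10.2 FPKM in NUP98-NSD1, and 0.122, 0.788 and 0.0882 FPKM in NUP98-NSD1+NRASG12D libraries. Cells with both vectors had less Cma2 than either other group, with log2 fold changes of -2.72 against NRASG12D (adjusted p = 0.000262 by limma) and -2.98 against NUP98-NSD1 cells (adjusted p = 0.00542 by limma). Between NUP98-NSD1 and NRASG12D cells the log2 fold change was 0.26 (adjusted p = 0.0848 by limma), and its sign changed after median-ratio scaling (-0.02) and after quantile normalization (-0.08). The identity of these reads is uncertain: 39.8% of its 50-base stretches occur in Mcpt9 or Mcpt4, and the gene overlaps the pseudogenes Mcpt-ps1 and Gm48927 in the annotation.

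The mucosal chymases Mcpt1 (ENSMUSG00000022227.5, chromosome 14 from 56017971 to 56020384) and Mcpt2 (ENSMUSG00000022226.6, chromosome 14 from 56042041 to 56044642) followed Mcpt4 rather than Cma1. Mcpt1 encodes mMCP-1, a chymase released into blood and gut in worm infections. Mcpt1 had 11.6, 2.94 and 16.5 FPKM in NRASG12D, 45.5, 58.6 and 65.5 FPKM in NUP98-NSD1 and 3.14, 4.44 and 1.16 FPKM in NUP98-NSD1+NRASG12D libraries. Mcpt2, which encodes mMCP-2, had 78.2, 26.7 and 78.1 FPKM in NRASG12D, 185, 248 and 242 FPKM in NUP98-NSD1 and 11.6, 15.7 and 10.9 FPKM in NUP98-NSD1+NRASG12D libraries. For both genes, all NUP98-NSD1 libraries were above all others, and replicate 2 was the lowest NRASG12D library. For Mcpt1 this library was below replicates 1 and 2 of NUP98-NSD1+NRASG12D, whereas for Mcpt2 the NRASG12D and NUP98-NSD1+NRASG12D groups did not overlap.

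In NUP98-NSD1 against NRASG12D cells, the mean of Mcpt1 was 5.46-fold higher (log2 fold change 2.58, standard error 0.51, adjusted p = 0.00606 by limma) and that of Mcpt2 3.69-fold higher (log2 fold change 2.01, standard error 0.40, adjusted p = 0.00619 by limma). In NUP98-NSD1+NRASG12D against NUP98-NSD1 cells, Mcpt1 was 19.4-fold lower (log2 fold change -3.96, adjusted p = 0.00542 by limma) and Mcpt2 17.7-fold lower (log2 fold change -4.04, adjusted p = 0.0014 by limma). Without the filter on low values the calls against NRASG12D were lost (adjusted p = 0.0528 for Mcpt1, with a range of 0.00181 to 0.199 over 10 alternatives, and 0.0532 for Mcpt2, with a range of 0.00232 to 0.374). Without NRASG12D replicate 2 the log2 fold change of Mcpt1 was 1.94, still called. Both calls against NUP98-NSD1 held in every fit that left out 1 library. Against NRASG12D cells, Mcpt2 fell by 2.04 on the log2 scale in NUP98-NSD1+NRASG12D cells (adjusted p = 0.0094 by limma), while Mcpt1 had a log2 fold change of -1.39 and did not pass (adjusted p = 0.105 by limma). Without NRASG12D replicate 2 the latter passed, with a log2 fold change of -2.02, and adjusted p-values over the 6 fits without a library ran from 0.0201 to 0.292. Despite the rise in NUP98-NSD1 cells, neither mucosal chymase came near the level of Cma1 or Tpsb2 in any group.

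Mcpt8 (ENSMUSG00000022157.8, chromosome 14 from 56082166 to 56085273), the basophil protease mMCP-8, had the largest difference between NUP98-NSD1 and NRASG12D cells among the tested members. It had 47.9, 16.2 and 52.0 FPKM in NRASG12D, 573, 991 and 693 FPKM in NUP98-NSD1 and 200.1, 333 and 17.97 FPKM in NUP98-NSD1+NRASG12D libraries. The NUP98-NSD1 libraries were above all others, and replicate 3 of NUP98-NSD1+NRASG12D lay within the range of NRASG12D. The mean in NUP98-NSD1 cells was 19.4-fold that in NRASG12D cells (log2 fold change 4.37, standard error 0.43, adjusted p = 0.000725 by limma), and this call held in all 6 fits without a library and in all 10 other alternatives.

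NUP98-NSD1+NRASG12D cells had no call for Mcpt8 against NRASG12D (log2 fold change 1.61, standard error 1.05, adjusted p = 0.254 by limma) or against NUP98-NSD1 cells (log2 fold change -2.76, standard error 1.00, adjusted p = 0.144 by limma). With array weights the latter passed (log2 fold change -4.15, adjusted p = 0.0132, with a range to 1 over 10 alternatives). Without NUP98-NSD1+NRASG12D replicate 3 the former passed, with a log2 fold change of 2.87, and adjusted p-values over the 6 fits without a library ran from 0.0135 to 0.559. Prss34, which encodes a further basophil protease, mMCP-11, had 0.445, 1.11 and 1.47 FPKM in NRASG12D, 119, 450.4 and 41.2 FPKM in NUP98-NSD1 and 110.1, 104 and 4.64 FPKM in NUP98-NSD1+NRASG12D libraries. It was thus lowest in replicate 3 of the last group, like Mcpt8. Cd200r3, a receptor of basophils and mast cells, moved with the mast cell receptors instead, with means of 379.9, 181 and 22.8 FPKM in the same order of groups. The part of basophils in the level of Mcpt8 was not tested.

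Mcpt9 (ENSMUSG00000071361.1, chromosome 14 from 56026864 to 56030495) had 0.251 to 0.304 FPKM in NRASG12D and 0.176 to 0.301 FPKM in NUP98-NSD1 libraries. It was at 0 in replicates 1 and 3 of NUP98-NSD1+NRASG12D and at 0.0424 FPKM in replicate 2. The level given by 3 fragments was 0.0424 to 0.0667 FPKM for this gene, and none of the NUP98-NSD1+NRASG12D libraries reached its own limit of 0.0532, 0.0615 and 0.0658 FPKM, so Mcpt9 was not detectable there at this depth. Of its 50-base stretches, 18.8% occur in Cma2 or Mcpt4, both of which had higher levels.

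Tpsb2 (ENSMUSG00000033825.10, chromosome 17 from 25366305 to 25369098) encodes mMCP-6, the main tryptase of mouse connective tissue mast cells. It had 7712, 12651 and 9149 FPKM in NRASG12D, 3407, 4353 and 4652 FPKM in NUP98-NSD1 and 249, 1180.1 and 235 FPKM in NUP98-NSD1+NRASG12D libraries. The groups did not overlap in any comparison. Relative to NRASG12D, Tpsb2 was 2.38-fold lower with NUP98-NSD1 alone (log2 fold change -1.23, standard error 0.22, adjusted p = 0.00402 by limma) and 17.7-fold lower with both vectors (log2 fold change -4.55, standard error 0.63, adjusted p = 0.00186 by limma). Without replicate 2 of NUP98-NSD1+NRASG12D the fall against NRASG12D was -5.31 on the log2 scale. With all 9 libraries in a single fit the call between NUP98-NSD1 and NRASG12D was lost (adjusted p = 0.126, with a range of 0.00125 to 1 over 10 alternatives). Against NUP98-NSD1 cells it was 7.46-fold lower with both vectors (log2 fold change -3.32, standard error 0.63, adjusted p = 0.0252 by limma). This call was lost without replicate 1, 2 or 3 of NUP98-NSD1 and without replicate 3 of NUP98-NSD1+NRASG12D, with log2 fold changes of -4.08 to -2.92 and adjusted p-values of 0.000957 to 0.103 over the 6 fits.

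Tpsab1 (ENSMUSG00000024173.11, chromosome 17 from 25343245 to 25345562), the tryptase gene whose protein C57BL/6 mice lack, was far below Tpsb2 in every library. It had 16.6, 50.1 and 23.1 FPKM in NRASG12D, 6.67, 8.62 and 21.2 FPKM in NUP98-NSD1 and 1.36, 10.7 and 0.592 FPKM in NUP98-NSD1+NRASG12D libraries. Replicate 3 of NUP98-NSD1 lay above replicate 1 of NRASG12D and replicate 2 of NUP98-NSD1+NRASG12D lay within the range of NUP98-NSD1, so only the NRASG12D and NUP98-NSD1+NRASG12D groups did not overlap. It fell by 2.98 on the log2 scale between them (standard error 0.76, adjusted p = 0.0217 by limma), a call that was lost without NRASG12D replicate 2 or 3 and without NUP98-NSD1+NRASG12D replicate 1 or 3 (log2 fold changes of -3.85 to -2.41, adjusted p-values of 0.00242 to 0.0734 over the 6 fits). In NUP98-NSD1 against NRASG12D cells the log2 fold change was -1.24 (adjusted p = 0.0699 by limma). This passed after median-ratio scaling (adjusted p = 0.0473), after quantile normalization (0.044) and with array weights (0.0107), and without NRASG12D replicate 1 or NUP98-NSD1 replicate 3, with adjusted p-values of 0.0193 to 0.198 over the 6 fits. In NUP98-NSD1+NRASG12D against NUP98-NSD1 cells it was -1.74 (adjusted p = 0.226 by limma), which passed without NUP98-NSD1+NRASG12D replicate 2, with adjusted p-values of 0.0362 to 0.539 over the 6 fits.

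Cpa3 (ENSMUSG00000001865.2, chromosome 3 from 20215620 to 20242181, 11 exons) encodes a metalloprotease that depends on serglycin and mMCP-5 for its storage. It was the gene with the highest mean FPKM of all genes in NUP98-NSD1 cells, with 13413, 12564 and 14378 FPKM, and the highest member in NUP98-NSD1+NRASG12D cells, with 353, 1821 and 279.6 FPKM. The groups did not overlap, and the mean was 16.4-fold lower in the latter (log2 fold change -4.57, standard error 0.70, adjusted p = 0.0135 by limma). Without replicate 1, 2 or 3 of NUP98-NSD1 this call was lost, with log2 fold changes of -5.41 to -4.06 and adjusted p-values of 0.000709 to 0.0669 over the 6 fits that left out a library. In all 3 NRASG12D libraries Cpa3 was listed at 0. It was the only gene listed at 0 in a whole group and above 100 FPKM in all libraries of both others. Its neighbour Gyg had 54.4 to 64.2 FPKM and its neighbour Cpb1 1.603 to 2.34 FPKM in these libraries. Cufflinks also writes 0 for a locus that it did not estimate, and it skips loci with more fragments than a set maximum, but the tables hold no status that would tell these cases apart. No fold is therefore given for Cpa3 against NRASG12D, and a statement on its level in these cells cannot be made from the listed value.

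**Figure D2:**
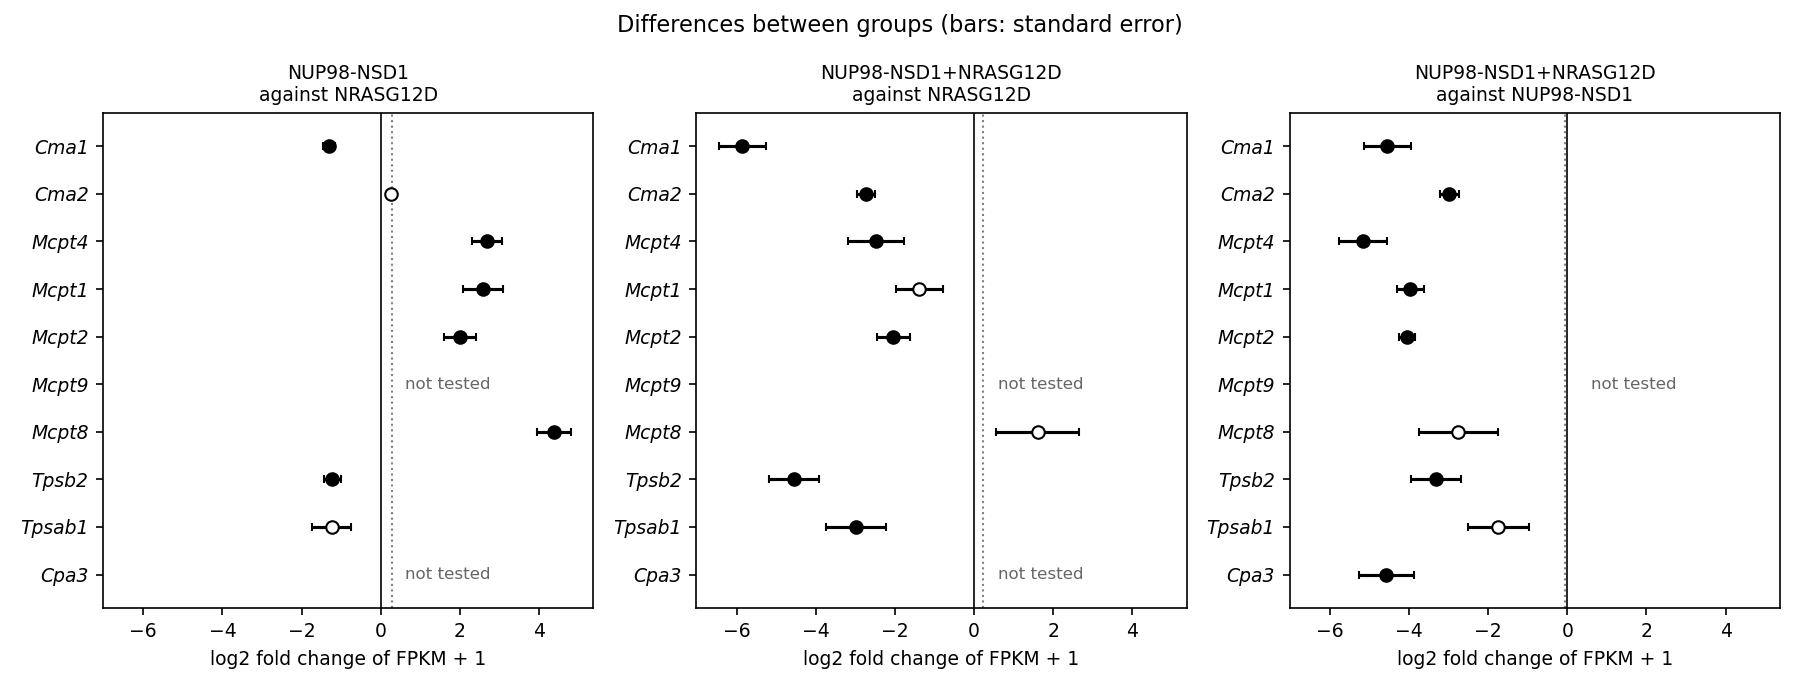
Log2 fold changes of FPKM + 1 for the members in the 3 comparisons, with their standard errors from limma. Filled points had an adjusted p under 0.05, open points did not, and the dotted line is the median of all tested genes. In NUP98-NSD1 against NRASG12D cells the members lay on both sides of 0, from -1.31 for Cma1 to 4.37 for Mcpt8, and in NUP98-NSD1+NRASG12D against NUP98-NSD1 cells all 9 lay below 0.

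To compare the makeup of the granule proteases independently of the scaling between libraries, the share of each gene in the summed FPKM of the 9 serine proteases (all members but Cpa3) was taken within each library. Cma1 and Tpsb2 together made up most of it in every library, while Mcpt4, also of connective tissue type, held at most 3.94%. In NRASG12D cells Cma1 held 66.7%, 49.9% and 62.8% and Tpsb2 32.2%, 49.6% and 36.1%, so that all others together were minor. In NUP98-NSD1 cells Cma1 held 56.0%, 46.4% and 52.5% and Tpsb2 32.3%, 38.4% and 35.7%, while Mcpt4 held 3.66% to 3.94%, against 0.130% to 0.420% in NRASG12D cells. Mcpt8 had the next largest share after Cma1 and Tpsb2 in every NUP98-NSD1 library, with 5.44%, 8.73% and 5.33%. In NUP98-NSD1+NRASG12D cells it held 31.6%, 14.6% and 4.32%, and in replicate 1 it exceeded Cma1. In NUP98-NSD1+NRASG12D cells Tpsb2 was first in every library, with 39.3%, 51.8% and 56.4%, ahead of Cma1 with 25.8%, 30.6% and 34.5%. The ratio of Cma1 to Tpsb2 was 2.08, 1.005 and 1.74 in NRASG12D, 1.73, 1.21 and 1.47 in NUP98-NSD1 and 0.656, 0.591 and 0.612 in NUP98-NSD1+NRASG12D libraries. Their order was thus the same in all 6 libraries with a single vector and turned in all 3 with both, although the pair was nearly level in replicate 2 of NRASG12D. This ratio was chosen after its values had been seen, and it was not tested.

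**Figure D3:**
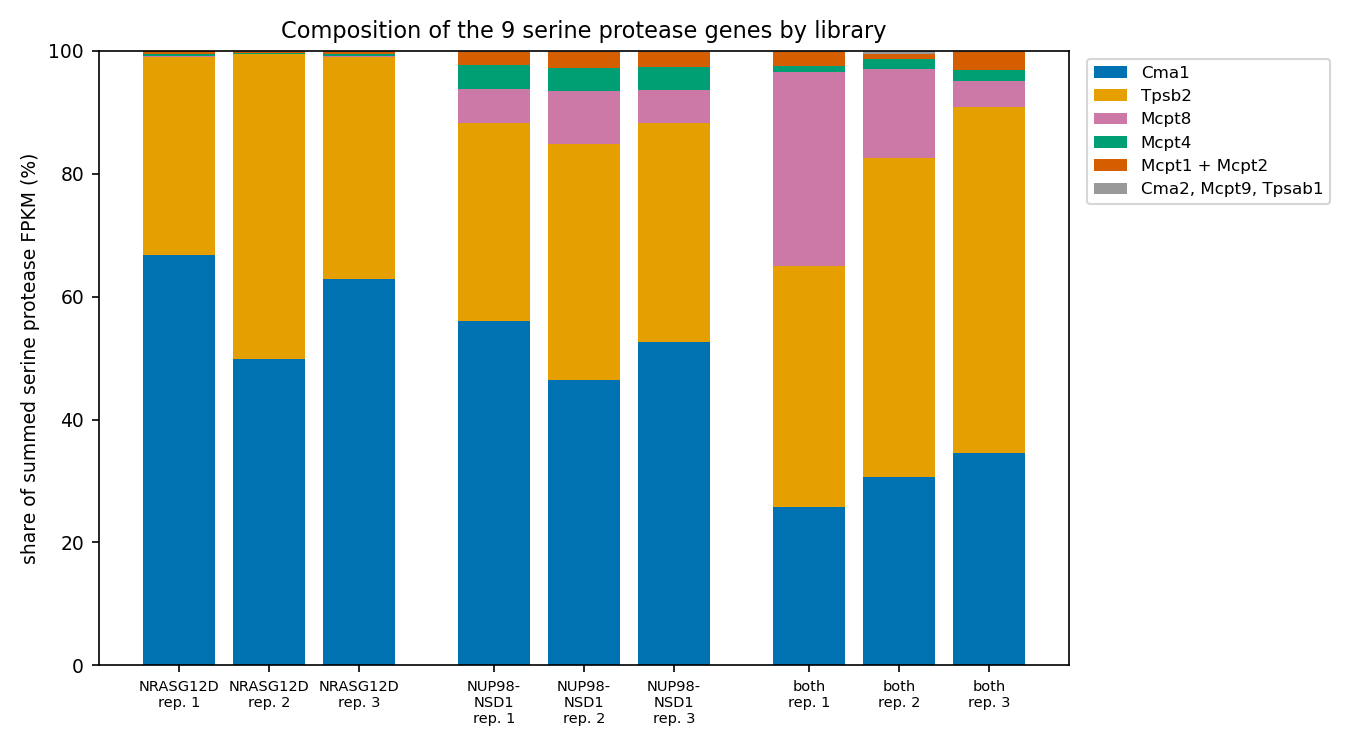
Share of each serine protease gene in the summed FPKM of the 9 serine protease genes (bars from 0 to 100%, 1 per library). Cma1 and Tpsb2 fill nearly the whole bar in NRASG12D cells, Mcpt4, Mcpt1 and Mcpt2 are visible in NUP98-NSD1 cells, and in NUP98-NSD1+NRASG12D cells (both) Tpsb2 exceeds Cma1 and the share of Mcpt8 ranges from 4.32% to 31.6%.

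The mucosal chymases Mcpt1 and Mcpt2 together held 0.374%, 0.116% and 0.373% of the sum in NRASG12D, 2.18%, 2.698% and 2.37% in NUP98-NSD1 and 2.33%, 0.884% and 2.90% in NUP98-NSD1+NRASG12D libraries. The share was 2.42% ± 0.261 (SD, n = 3) in NUP98-NSD1 and 2.04% ± 1.04 (SD, n = 3) in NUP98-NSD1+NRASG12D against 0.288% ± 0.149 (SD, n = 3) in NRASG12D cells. Both groups with NUP98-NSD1 lay entirely above NRASG12D (two-sided exact permutation test, p = 0.1 for each, adjusted p = 0.15 over 9 such tests), and 0.1 is the smallest p that 3 against 3 libraries allow. The groups with NUP98-NSD1 overlapped each other (exact permutation p = 0.8), and without replicate 2 of NUP98-NSD1+NRASG12D the difference of their means turned from -0.379 to 0.198 percentage points. Mcpt2 exceeded Mcpt1 in every library, by 3.53-fold to 9.45-fold.

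The tryptases Tpsb2 and Tpsab1 held 39.4% ± 9.21 (SD, n = 3) of the sum in NRASG12D, 35.6% ± 3.04 (SD, n = 3) in NUP98-NSD1 and 49.4% ± 8.85 (SD, n = 3) in NUP98-NSD1+NRASG12D cells. The share was above that of NUP98-NSD1 in all 3 NUP98-NSD1+NRASG12D libraries (exact permutation p = 0.1, the smallest possible, adjusted p = 0.15). Over the 9 genes, both groups with NUP98-NSD1 overlapped NRASG12D cells, with exact permutation p-values of 0.7 (NUP98-NSD1) and 0.2 (both vectors). With Mcpt8 left out of the sum, the difference of NUP98-NSD1+NRASG12D from NRASG12D cells grew from 10.02 to 19.9 percentage points and had the smallest possible exact permutation p of 0.1. Replicate 2 of NRASG12D, at 49.8%, stood above the 32.2% and 36.2% of the other two, and without it the difference of NUP98-NSD1 from NRASG12D turned from -3.84 to 1.35 percentage points.

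To set the proteases beside other genes of mast cells, the sum of the 9 serine proteases was divided by the sum of Fcer1a, Ms4a2 (chains of the IgE receptor), Kit (the stem cell factor receptor) and Il1rl1 (the interleukin-33 receptor) within each library. The log2 ratio was 1.91, 1.79 and 2.05 in NRASG12D, 1.47, 1.52 and 1.30 in NUP98-NSD1 and 2.64, 2.37 and 2.71 in NUP98-NSD1+NRASG12D libraries. No groups overlapped, and each of the 3 differences had the smallest possible exact permutation p of 0.1 (adjusted p = 0.15): -0.49 for NUP98-NSD1 against NRASG12D, 0.65 for NUP98-NSD1+NRASG12D against NRASG12D and 1.15 for NUP98-NSD1+NRASG12D against NUP98-NSD1. Relative to the 4 receptors summed, every library with both vectors thus had more serine protease RNA than any library of the other groups, at a far lower level of both. Without Mcpt8 in the sum, the difference from NRASG12D cells was 0.38 in place of 0.65, again with an exact permutation p of 0.1. Against NRASG12D and against NUP98-NSD1 cells, 4 of 4 receptors were called lower with both vectors, beside 14.1% and 6.31% of all tested genes. In NUP98-NSD1 against NRASG12D cells, 3 of 4 were called lower, beside 9.98%, and Fcer1a was not (adjusted p = 0.053 by limma). Fcer1a had the highest mean of the 4 in each group. In that comparison Fcer1a and Kit had log2 fold changes of -0.43 and -1.26, and with both vectors against NUP98-NSD1 of -5.26 and -3.91. The ratio therefore depends on the receptors summed, and ratios to single receptors were not tested.

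Members differed in this ratio. Relative to the receptor sum, Cma1 stood at 0.84 ± 0.29 (log2 ratio, SD, n = 3) in NUP98-NSD1+NRASG12D cells, whose libraries overlapped those of NRASG12D, between 0.47 ± 0.14 in NUP98-NSD1 and 1.17 ± 0.33 in NRASG12D cells. Tpsb2 stood at 1.53 ± 0.31 in NUP98-NSD1+NRASG12D cells, above -0.07 ± 0.18 in NUP98-NSD1 and 0.55 ± 0.26 in NRASG12D cells. Cpa3 stood at 1.99 ± 0.18 in NUP98-NSD1+NRASG12D and 1.64 ± 0.18 in NUP98-NSD1 cells, a difference of 0.35. The widest range was that of Mcpt8, from -7.58 ± 1.08 in NRASG12D through -2.55 ± 0.49 in NUP98-NSD1 to -0.42 ± 1.40 in NUP98-NSD1+NRASG12D cells. For Mcpt4 the values were -6.61 ± 1.02, -3.29 ± 0.12 and -3.69 ± 0.59 in the same order, so the last pair of groups lay close together. These values of single members are given as a description and were not tested.

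**Figure D4:**
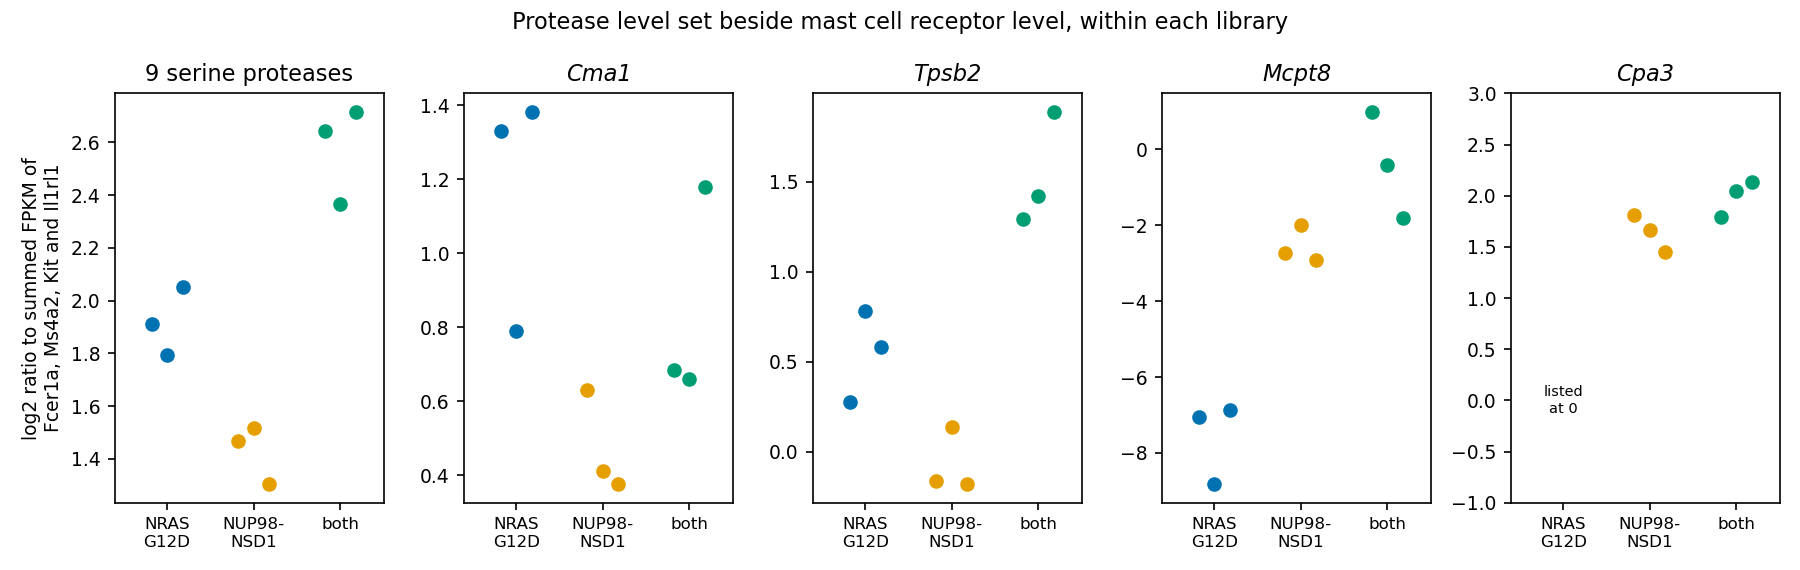
Log2 ratio of the summed serine proteases, and of Cma1, Tpsb2, Mcpt8 and Cpa3, to the summed FPKM of 4 mast cell receptor genes within each library (points; the range of the vertical axis differs between panels). NRASG12D is blue, NUP98-NSD1 orange and NUP98-NSD1+NRASG12D green (both). The summed ratio was highest in NUP98-NSD1+NRASG12D cells, from 2.37 to 2.71, and lowest in NUP98-NSD1 cells, from 1.30 to 1.52.

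Within 250 kb of the members, 34 other genes were expressed and tested. Of these, 13 were called higher and 7 lower in NUP98-NSD1 against NRASG12D cells, 8 higher and 15 lower in NUP98-NSD1+NRASG12D against NRASG12D cells, and 0 higher and 10 lower in NUP98-NSD1+NRASG12D against NUP98-NSD1 cells. Over all tested genes the shares called were 42.2% higher and 9.98% lower, 24.2% higher and 14.1% lower, and 2.3% higher and 6.31% lower in the same order. The counts include Mir7007, which lies inside Cpa3 and was listed at 0 in every library of NRASG12D and of NUP98-NSD1+NRASG12D. It is 1 of the 13 higher and 1 of the 10 lower, and the limit given for Cpa3 holds for it too. The granule protease genes beside the members did not move as a block. Gzmb, the granzyme B gene at the far end of the chymase cluster, changed like Cma1, with log2 fold changes of -0.66 (NUP98-NSD1 against NRASG12D, adjusted p = 0.00767 by limma), -5.51 (NUP98-NSD1+NRASG12D against NRASG12D, adjusted p = 0.00433 by limma) and -4.85 (NUP98-NSD1+NRASG12D against NUP98-NSD1, adjusted p = 0.0281 by limma). Ctsg, the cathepsin G gene between Mcpt8 and Gzmb and a protease of neutrophils, rose by 4.46 on the log2 scale in NUP98-NSD1 and by 4.74 in NUP98-NSD1+NRASG12D against NRASG12D cells. It had no call between the latter groups, with a log2 fold change of 0.28. On chromosome 17, Tpsg1, the transmembrane tryptase gene beside Tpsb2, fell with Tpsb2, with log2 fold changes of -0.87, -5.47 and -4.60 in the 3 comparisons, all called. Prss34, on the other side of Tpsab1, rose by 6.07 in NUP98-NSD1 and by 4.36 in NUP98-NSD1+NRASG12D cells against NRASG12D. Of the genes outside the protease family beside the chymase cluster, chosen here after their values had been seen, Khnyn and Ltb4r2 were called lower in all 3 comparisons, Ltb4r1 was called higher in both comparisons with NRASG12D, and Rabggta and Ripk3 were not called in any.

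**Figure D5:**
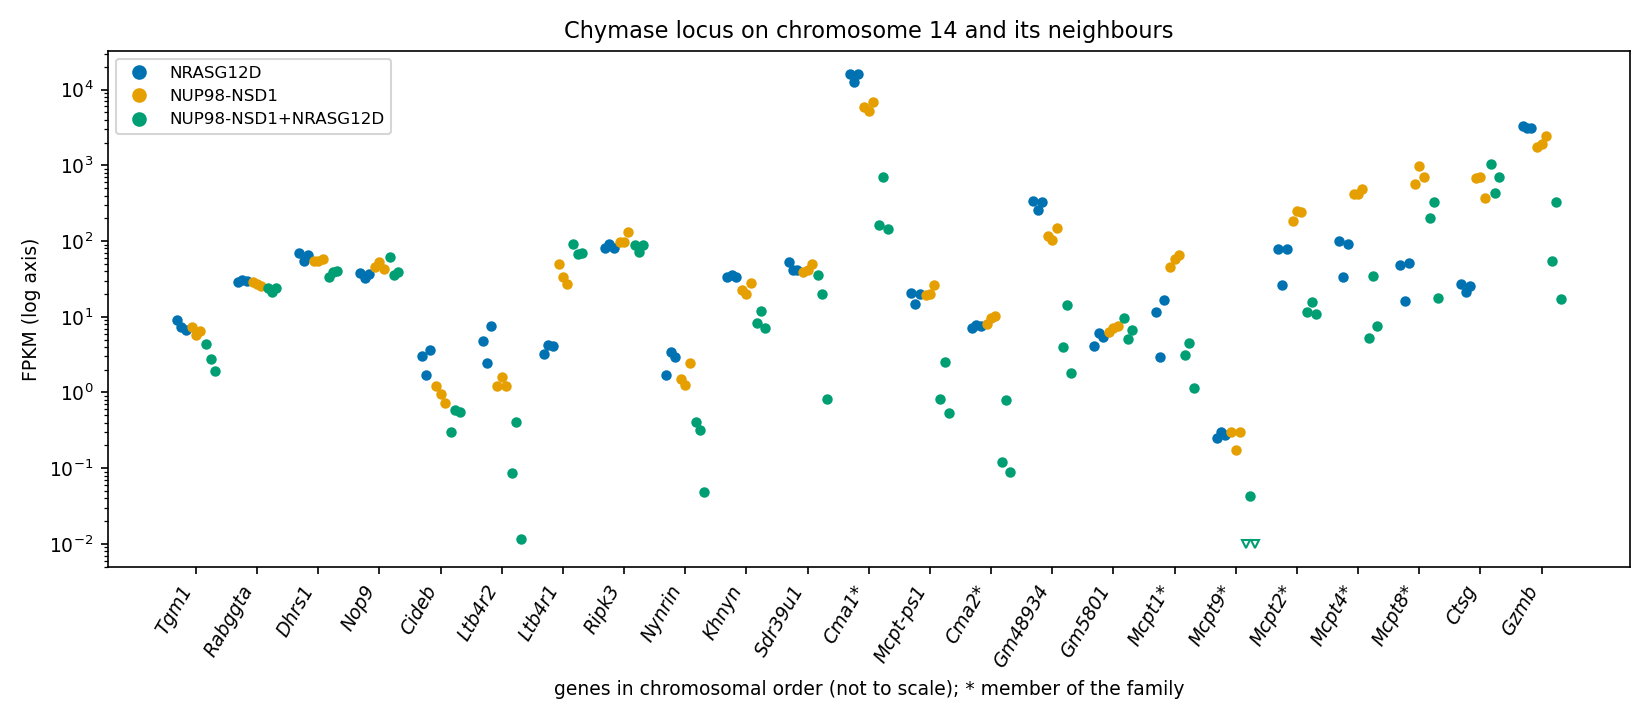
FPKM (log axis) of the members and the tested genes within 250 kb of them on chromosome 14, in chromosomal order and not to scale. Each point is a library, open triangles are values of 0 (drawn at the foot of the axis), and asterisks mark the members. Cma1, Gm48934 and Gzmb are highest in NRASG12D cells, Mcpt1, Mcpt2, Mcpt4 and Mcpt8 are highest in NUP98-NSD1 cells, and Ctsg is high in both groups with NUP98-NSD1.

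A list of 11 genes for storing and processing granule contents held 10 tested genes. In NUP98-NSD1 against NRASG12D cells 4 were called higher and 6 lower, in NUP98-NSD1+NRASG12D against NRASG12D cells again 4 higher and 6 lower, and in NUP98-NSD1+NRASG12D against NUP98-NSD1 cells 0 higher and 5 lower. Over all tested genes, 42.2% were higher and 9.98% lower, 24.2% higher and 14.1% lower, and 2.3% higher and 6.31% lower, so that the count of higher storage genes in NUP98-NSD1 cells was near the background. Srgn, which encodes serglycin, had 2992 ± 196 FPKM (SD, n = 3) in NRASG12D, 2238 ± 94.9 in NUP98-NSD1 and 874 ± 87.0 in NUP98-NSD1+NRASG12D cells, and its log2 fold changes of -0.42, -1.78 and -1.36 were all called. Ndst2 encodes a heparin sulfating enzyme needed to store several proteases of connective tissue mast cells. It had 120 ± 14.2, 75.1 ± 7.89 and 5.88 ± 6.21 FPKM (SD, n = 3), with log2 fold changes of -0.66, -4.49 and -3.83. Tph1 and Slc18a2, which make and store serotonin in mast cells, fell in each comparison. Ctsc, the peptidase that activates chymases, rose instead, from 223 ± 13.9 FPKM to 488 ± 59.3 and 599 ± 87.6 FPKM (SD, n = 3), with log2 fold changes of 1.12 and 1.41 against NRASG12D cells, and was not called between the groups with NUP98-NSD1. Hdc, which makes histamine, rose against NRASG12D cells by 4.31 in NUP98-NSD1 and by 3.21 in NUP98-NSD1+NRASG12D cells, the direction of Mcpt8 and not of Cma1. The remaining rises were those of Ctsl and Ctss, lysosomal peptidases that monocytes and macrophages also express, and they moved with the monocyte and macrophage genes. The part of these cells in the result was not tested.

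A list of 11 regulators of mast cells was tested in full. In NUP98-NSD1 against NRASG12D cells 2 were called higher (Spi1, Cebpa) and 4 lower (Gata1, Mitf, Tal1, Id2), beside 42.2% and 9.98% of all tested genes. Gata1, a GATA factor of mast and erythroid cells, had 109 ± 6.26 FPKM (SD, n = 3) in NRASG12D, 68.5 ± 9.63 in NUP98-NSD1 and 5.86 ± 5.99 in NUP98-NSD1+NRASG12D cells. Gata2 had 442 ± 54.7 and 378 ± 91.3 FPKM (SD, n = 3) in the former pair, which did not differ beyond their spread (log2 fold change -0.24, adjusted p = 0.286 by limma), and 30.5 ± 26.9 in NUP98-NSD1+NRASG12D cells. Mitf, the transcription factor that drives several protease genes, had 31.2 ± 1.73, 15.7 ± 1.66 and 7.48 ± 4.27 FPKM (SD, n = 3) in the 3 groups. It was lower than in NRASG12D cells in both others, with log2 fold changes of -0.95 and -2.04, and was not called between these (log2 fold change -1.09, adjusted p = 0.102 by limma). In NUP98-NSD1+NRASG12D cells 2 regulators were called higher and 8 lower against NRASG12D, beside 24.2% and 14.1% of all tested genes, and 0 higher and 5 lower against NUP98-NSD1 (Gata1, Gata2, Tal1, Runx1, Stat5a), beside 2.3% and 6.31%. Spi1, which encodes PU.1 and is also high in monocytes and neutrophils, rose from 76.8 ± 4.37 to 152 ± 42.3 and 260 ± 21.1 FPKM (SD, n = 3), with the second rise against NUP98-NSD1 not called (adjusted p = 0.0882 by limma).

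Across the 9 libraries, some members had like patterns, without a clean split into sets. Cma2 had correlations of 0.95 with Cma1 and 0.93 with Tpsb2, but also of 0.87 with Mcpt4 and with Mcpt2 and 0.77 with Mcpt1. The Pearson correlation of log2(FPKM + 1) was 0.99 between Cma1 and Tpsb2, and 0.95 to 0.97 among Mcpt1, Mcpt2 and Mcpt4, but 0.60 to 0.73 between Cma1 and each of the latter. Mcpt8 had correlations of 0.0301 with Cma1 and -0.00483 with Tpsb2, and of 0.59 to 0.74 with Mcpt1, Mcpt2 and Mcpt4. The points come from 3 groups with 3 libraries each, so these values mainly reflect differences between the groups, and they are given as a description. Among all tested genes, the 3 most like Cma1 were Atp8b5, Slc18a2 and the pseudogene Gm48934 (0.998 each, rounded). Those most like Tpsb2 were Havcr2, Cd55b and Lat (0.994 to 0.997), those most like Tpsab1 were Hpn, Gm16907 and Col18a1 (0.978 to 0.994), and those most like Cma2 were Calu, the overlapping Mcpt-ps1 and Hipk3 (0.992 to 0.993). Mcpt4 was most like Gpr176, Mcpt2 and Xlr (0.973 to 0.980), Mcpt1 most like Mcpt2, Asphd2 and Kcnq5 (0.962 to 0.973), and Mcpt2 most like Asphd2, Mcpt1 and Mcpt4 (0.973 to 0.981). Mcpt8 was most like the alpha-globin genes Hba-a2 (0.952) and Hba-a1 (0.946), and these alpha-globin genes did not exceed 12.4 FPKM in any library.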

How the data were processed

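RNA of 9 cultures (3 per group) was sequenced with paired-end reads of 50 bp. The submitters' processing notes name STAR 2.7.2a and Cufflinks 2.2.1 with the genome build GRCm38.p6, and the methods name the GENCODE M22 annotation. The authors deposited FPKM per gene from Cufflinks, 1 table per library with 55330 lines and 55274 gene identifiers. Lines of the same identifier were summed here. Strand-specific counting and the handling of reads with several alignments are not given in the sources used here. Coordinates are those of the tables, counted from 1, and 54867 of 54882 identifiers found in GENCODE M21 had equal coordinates.

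FPKM are not counts, so log2(FPKM + 1) was tested with limma 3.58.1 in R 4.3.3 (eBayes with trend) over genes that reached 1 FPKM in 3 or more of the 9 libraries, within each pair of groups, with Benjamini-Hochberg adjustment over all 13493 genes and a threshold of 0.05. Fold changes on this scale understate the change of low genes, and folds given without log2 are ratios of mean FPKM. The methods name DESeq2 on fragment counts, which were not used here. Depth was estimated from the steps between low FPKM values, checked on simulated counts, and the level of 3 fragments was taken as the floor, which covers counting error only since reads carried no molecular identifiers. Shares and ratios within libraries were compared with exact permutation tests (two-sided). Correlations, shared 50-base stretches and promoter motifs used scipy 1.17.1, pandas 2.3.3 and numpy 2.4.6 in Python 3.11.15, and matplotlib 3.10.9 drew the plots. The limma fit was tested on simulated data. Members, lists and tests were chosen with earlier results of these data known. Named genes are the members, their neighbours within 250 kb, the lists, genes overlapping a member and the 3 genes most correlated with each member, of which 1 is not reported here. The labels name no sequencing batch. Same-numbered libraries are not described as pairs. Alternatives were other pseudocounts, filters, scalings and models, leaving out each library, and Cpa3 values taken as listed.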

Additional observations from a re-analysis of the deposited data

How the results depend on the processing

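The deposited FPKM shift between groups as a whole: over all tested genes, the median difference on the log2 scale came to 0.27, 0.23 and -0.06 for the 3 comparisons in the order of the report, and to 0.01, 0.06 and 0.04 after median-ratio scaling. Relative to this median, Cma1 had -1.58, Cma2 -0.01 and Mcpt8 4.10 in NUP98-NSD1 against NRASG12D cells. Among the values of single members under alternatives, 351 kept direction and side of the threshold, 37 lost the call, 10 gained it and 2 changed sign, both for Cma2 in NUP98-NSD1 against NRASG12D cells (-0.015 after median-ratio scaling and -0.0807 after quantile normalization). The number of members called was 6, 6 and 7. A test for changes above 1 on the log2 scale called 1, 3 and 4, as it asks for a larger change. Without the filter on low values 3 of the 7 (Cma2, Mcpt1, Mcpt2) remained in NUP98-NSD1+NRASG12D against NUP98-NSD1 cells, with p-values adjusted over more genes. In both comparisons with NRASG12D it left 4 called: 2 higher and 2 lower in NUP98-NSD1 cells, and 0 higher and 4 lower with both vectors, where Mcpt2, Mcpt4 and Tpsab1 were lost and Mcpt9, which the filter removes, was called. A single fit of the 9 libraries left 4 higher and 0 lower in NUP98-NSD1 against NRASG12D cells, with 6 and 7 lower in the others. Leaving out a library in turn gave 6 to 7, 4 to 6 and 5 to 8 members called. Taking the 0 of Cpa3 as listed gave 7 and 7 members, with Cpa3 higher, in the comparisons with NRASG12D.

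With the replicate number as a block, 6, 6 and 7 members were called, as without it. Same-numbered libraries shared only a number: the correlations of their deviations from the group means ran from -0.18 to 0.16, with mixed signs.

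Among the within-library measures, the difference of the Mcpt1 and Mcpt2 share between cells with both vectors and NUP98-NSD1 alone ran from -0.811 to 0.198 percentage points when a library was left out, and changed sign to 0.198 without NUP98-NSD1+NRASG12D replicate 2. The tryptase share between NUP98-NSD1 and NRASG12D cells ran from -7.44 to 1.35, and changed sign to 1.35 without NRASG12D replicate 2. The cause was not tested. The other 7 differences kept their sign in each fit without a library and without Mcpt8, although leaving out Mcpt8 moved the tryptase share against NRASG12D in cells with both vectors from 10.02 to 19.9 percentage points, and the log2 ratio to receptors from 0.65 to 0.38. The 6 share comparisons also kept it on the log2 ratio scale, and the 3 protease to receptor ratios without Kit. Without Kit these 3 differences grew, to -0.59, 0.77 and 1.35 in the order of the report. Leaving out Fcer1a, the receptor with the highest mean in each group, was not tried. Depth limits Mcpt9 and, in NUP98-NSD1+NRASG12D cells, Cma2. Replicates 1 and 3 of this group had 0.122 and 0.0882 FPKM of Cma2, near or below the 0.112 and 0.139 FPKM given by 3 fragments.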
